A study of Drosophila melanogaster with 11 samples.

Results

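The genes described here are 6 of the 13931 genes counted in larval fat body of Drosophila melanogaster, and they cover the making, uptake and acetylation of dopamine and related amines. They are Hn (Henna), Pu (Punch), ple (pale), Ddc (Dopa decarboxylase), AANATL2 (Arylalkylamine N-acetyltransferase-like 2) and DAT (Dopamine transporter), chosen by their symbols. DAT and AANATL2 were taken up because of their pattern over the strains, so their levels are given as a description with no test. The other 4, called the enzymes below, were taken for their role in amine synthesis, although results of these data were known when that choice was made.

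The libraries held poly-A RNA from fat bodies of female larvae late in the wandering part of the third instar, from 5 isofemale strains collected in Germany. Such a strain is bred from 1 wild-caught female, so it stands for 1 genetic background and not for the population. The strains were MU10, MU12, MU17 and MU26 with 2 libraries each and MU14 with 3, all without any transgene or experimental treatment. Larvae were kept at the same density and staged at 25°C. By the authors' account their medium held the dye bromophenol blue, and late larvae were recognised by a clear gut. Total counts ranged from 34631482 to 49582725 per library with a median of 38321327. The labels do not say whether libraries of a strain came from separate cultures, so the p-values measure only the spread between these libraries.

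Flies make dopamine from tyrosine, which ple hydroxylates to dopa and Ddc decarboxylates to dopamine. Tyrosine itself can come from phenylalanine through Hn, and both hydroxylases need the cofactor tetrahydrobiopterin, whose synthesis Pu opens. In the cuticle dopamine is conjugated to beta-alanine or acetylated on its way to hardening and pigment, while in the nervous system DAT returns released dopamine to the neuron. The fat body is the larval organ of storage and intermediary metabolism.

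All 6 genes passed the filter on low counts (mean count of 15 or more), as did 8415 genes in all. Expression was scaled to TMM-adjusted library totals as CPM, and levels of different genes were compared as CPM per kilobase of the deposited gene length, averaged over the 5 strain means. On that scale Hn reached 442 and Pu 373, above 97.7% and 97.4% of the tested genes. AANATL2 stood at 61.9, above 90.2% of them. DAT averaged 11.1 through a single strain, ple stood at 5.55 near the middle of all tested genes, and Ddc at 1.52 was above only 24.4% of them. The order was therefore phenylalanine hydroxylase and the cofactor enzyme far above the 2 enzymes that turn tyrosine into dopamine.

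**Figure D1:**
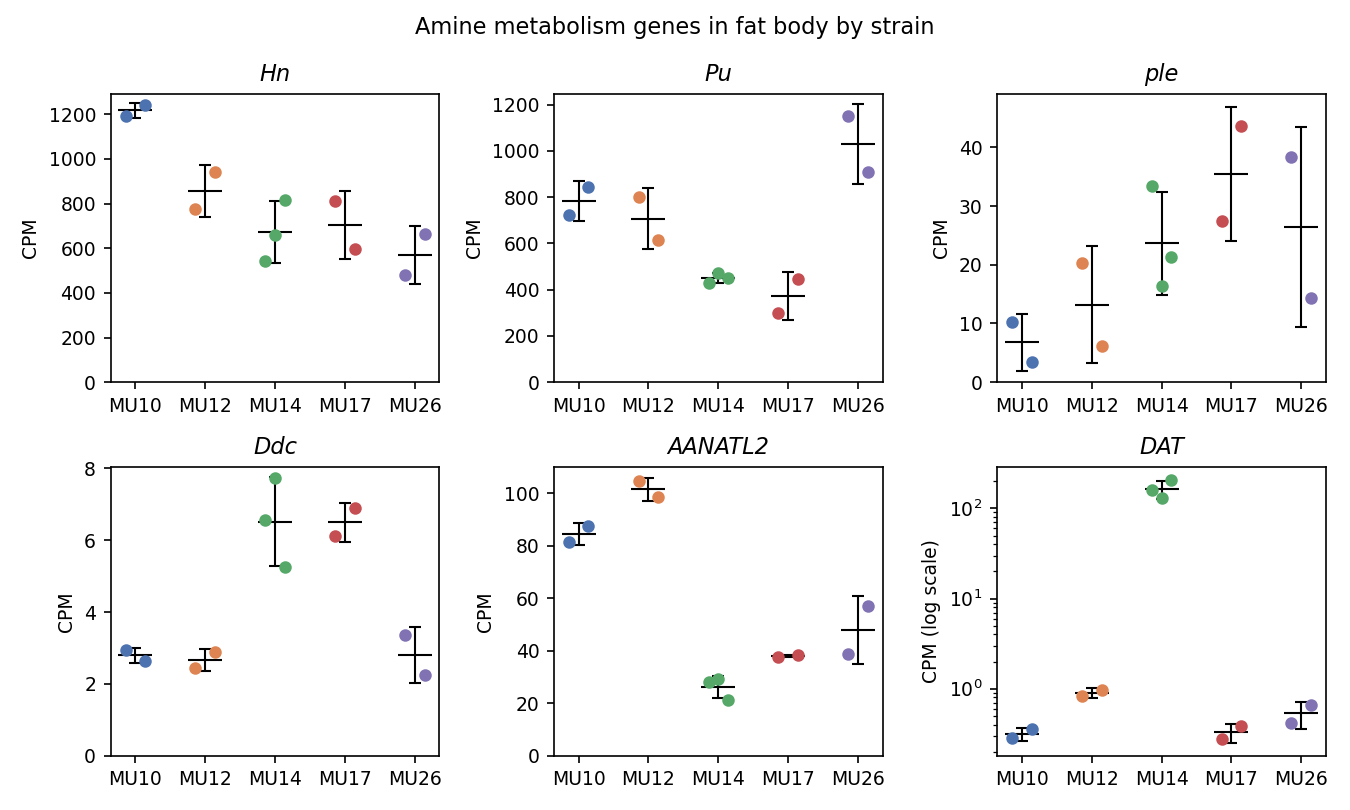
Normalised expression in CPM (vertical axis, linear except for DAT, where it is logarithmic) of the 6 genes in each library, by strain. Points are libraries, horizontal bars are strain means and error bars are 1 SD. DAT lies between 131 and 206 CPM in the 3 MU14 libraries and under 1 in the other 8.

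The fat body label was checked against marker genes. The 9 fat body markers, among them the storage proteins, summed to between 301000 and 458000 CPM per library. Nervous system markers summed to 507 to 683 CPM and haemocyte markers to 516 to 859, most of it from Syt1 and srp. Epidermal and cuticle markers ranged from 6.5 to 34 CPM and tracheal markers from 10.1 to 17.8. Markers of midgut, Malpighian tubule and ring gland summed to at most 2.65, 0.368 and 0.911 CPM. Salivary gland markers ranged from 3.68 to 146 CPM and muscle markers from 21.5 to 98.6 CPM, and the highest library of each was from MU17. In bulk tissue fewer cells of a type and less RNA per cell cannot be told apart.

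Differences between strains were tested with edgeR's quasi-likelihood test, Benjamini-Hochberg adjusted over all tested genes at a false discovery rate of 0.05. Across the 5 strains 3 of the 4 enzymes were called, Hn, Pu and Ddc, where 48.3% of all tested genes were called. In the 10 pairs of strains 14 of the 40 enzyme-by-pair tests were called, or 35%, where 20.3% of all gene-by-pair tests were called. The share of all tested genes called was 19.6% for MU10 against MU12, 19.2% against MU14, 19% against MU17 and 15.5% against MU26. It was 26.5%, 21% and 25.1% for MU12 against MU14, MU17 and MU26, and 16.6%, 19.9% and 20.9% for MU14 against MU17, MU14 against MU26 and MU17 against MU26. Leaving out 1 library lowered the 14 most when it was a MU10 library, to 9 without MU10 replicate 1 and 7 without MU10 replicate 2. The range of strain mean log2 CPM had a median of 1.72 over the 6 genes and 0.78 over all tested genes, and 2 of the 6 had been chosen for their range.

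Hn encodes phenylalanine hydroxylase, which makes tyrosine from phenylalanine, and lies on 3L at 7760453 to 7763166 on the plus strand (FBgn0001208, Release 6 of the genome). MU10 had 1193 and 1242 CPM of Hn, MU12 775 and 940, MU14 542, 658 and 816, MU17 813 and 596, and MU26 479 and 662. Both MU10 libraries lay above the other 9, as was so for 7.24% of tested genes, while the other 4 strains overlapped except that MU12 was above MU26. Hn differed across strains with an adjusted p of 0.024. MU10 averaged 1220 ± 34.6 CPM (SD, n = 2) and MU14 672 ± 137 (SD, n = 3), a log2 difference of 0.86 ± 0.21 (SE) with an edgeR adjusted p of 0.025. MU10 also exceeded MU26, by a log2 difference of 1.09 ± 0.24 with an adjusted p of 0.018. The difference of MU10 from MU17 was 0.79 ± 0.24 and missed the threshold with an adjusted p of 0.051, though it was called in 7 of 18 alternatives, DESeq2 and limma-voom among them, with adjusted p-values from 0.015 to 0.26 over the 18. The call across strains rested on single libraries. Leaving out MU10 replicate 1 gave an adjusted p of 0.088, leaving out its replicate 2 gave 0.1, and leaving out MU14 replicate 2 gave 0.052. Each called pair was also lost when either MU10 library was left out, MU10 against MU14 without replicate 1 or 2 of MU14, and MU10 against MU26 without MU26 replicate 1.

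The genes whose log2 CPM followed Hn most closely over the 11 libraries were by, with a Pearson r of 0.955, EcR, with 0.942, and CG9886, with 0.937. EcR encodes the ecdysone receptor. The deviations of these genes from their strain means followed those of Hn with r of 0.852, 0.901 and 0.932. In a strain with 2 libraries the deviations mirror each other. Each r of deviations, here and below, therefore rests on fewer independent values than the 11 libraries. Summed salivary gland markers had an r with Hn of -0.665 and of -0.812 for deviations, and muscle markers 0.166 and 0.749. Their part in the Hn values was not tested. Beside Hn lie CG32373 and Clk, a circadian clock gene, which was too low to be tested. CG32373 had strain means from 0.127 to 1.06 CPM. It passed the filter on low counts only through MU12, with 82 counts there, so no p-value is given for it.

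Pu encodes GTP cyclohydrolase I, the entry enzyme of pteridine and tetrahydrobiopterin synthesis, and lies on 2R at 21175315 to 21182608 on the plus strand (FBgn0003162). The MU10 libraries held 721 and 844 CPM, MU12 799 and 612, MU14 431, 474 and 452, MU17 299.6 and 445, and MU26 1151 and 907. Both MU26 libraries were above all others, as was so for 8.45% of tested genes, and the 5 MU14 and MU17 libraries were below the other 6, as was so for 2.26%.

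Pu differed across strains with an adjusted p of 0.003, which stayed at or under 0.019 in all 19 alternatives tried. The largest difference was between MU26, with 1030 ± 172 CPM (SD, n = 2), and MU17, with 372 ± 103 (SD, n = 2). It was 2.76-fold, the coded log2 difference of MU17 minus MU26 was -1.47 ± 0.22 (SE), and the adjusted p by edgeR was 0.0026. MU14 was likewise lower than MU26, by 2.28-fold with an adjusted p of 0.0041, and these pairs were called under every alternative that held both strains. MU10 exceeded MU17 by 1.07 ± 0.22 and MU14 by 0.79 ± 0.19 on the log2 scale, and MU12 exceeded MU17 by 0.92 ± 0.21 and MU14 by 0.64 ± 0.19. The adjusted p-values of these 4 pairs were 0.011, 0.023, 0.019 and 0.039. Each of these 4 pairs lost its call without at least 1 library. MU10 against MU17 was lost without MU10 replicate 2 or MU17 replicate 1, and MU12 against MU17 without MU12 replicate 1 or MU17 replicate 1. MU10 against MU14 was lost without any single library of either strain, and MU12 against MU14 without either MU10 library, MU12 replicate 1 or any MU14 library. The pairs of MU14 with MU10 and MU12 were also lost under upper-quartile scaling and with a replicate block.

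The order of Pu over strains was not that of Hn, as MU26 was highest for Pu and lowest for Hn. Over the 11 libraries these genes had an r of 0.0438. The closest patterns to Pu were those of sol (r = 0.942), Galphaq, a G protein subunit (0.922), and Osbp, an oxysterol-binding protein (0.914). For deviations from strain means their r with Pu fell to 0.148, 0.576 and 0.625. A small gene on the opposite strand, CG4286, lies within Pu and held between 0.0272 and 0.295 CPM. Its neighbours are Xpd, a DNA repair and transcription helicase gene, highest in MU10 with 6.80 ± 0.0682 CPM and lowest in MU17 with 3.15 ± 0.594 (adjusted p = 0.0093), and tud, with strain means from 235 to 321 CPM (adjusted p = 0.072).

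The gene ple encodes tyrosine hydroxylase, the rate-limiting enzyme of dopamine synthesis, and lies on 3L at 6713356 to 6719525 on the minus strand (FBgn0005626). Expression of ple was 10.2 and 3.38 CPM in MU10, and then MU12 had 20.2 and 6.16, MU14 33.4, 16.3 and 21.3, MU17 27.5 and 43.6, and MU26 38.4 and 14.4. Replicates of a strain differed by up to 3.28-fold, in MU12, more than the largest replicate ratio of 91.6% of tested genes. The MU10 libraries lay below every MU14, MU17 and MU26 library, as was so for 9.95% of tested genes. MU12 also lay below MU17, and the remaining pairs of strains overlapped.

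The strain means of ple were lowest in MU10 with 6.77 ± 4.80 CPM (SD, n = 2) and highest in MU17 with 35.5 ± 11.4 (SD, n = 2), and the means of log2 CPM spanned 2.55. This range did not pass the edgeR test across strains, with an adjusted p of 0.12, and none of the 10 pairs was called. In the nearest pair MU17 was above MU10 by a log2 difference of 2.38 ± 0.74 (SE), for which the adjusted p was 0.056. That pair was called in 7 of 18 alternatives, among them DESeq2, no filter and each fit that left out a library of MU12 or MU26. The test across strains was called in 2 of 19 alternatives, with an adjusted p of 0.014 by DESeq2.

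Within these libraries ple moved together with e (ebony), whose enzyme joins beta-alanine to dopamine for cuticle tanning. For e the CPM were 4.94 and 2.09 in MU10, with MU12 at 8.0 and 1.93, MU14 at 19.5, 6.82 and 12.6, MU17 at 21.5 and 33.4, and MU26 at 15.1 and 9.47. In each of the 5 strains the library with the most ple was also the one with the most e. The r of log2 CPM over the 11 libraries was 0.949, Spearman's rho was 0.927, and the r of deviations from strain means was 0.938. As e was in a list tested here, its own difference across strains had an adjusted p of 0.037, with MU17 above MU10 by 7.73-fold. That call was lost without MU17 and without any single library of MU10, MU17 or MU26 or MU14 replicate 3, with adjusted p-values up to 0.12.

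The closest patterns to ple over all tested genes were those of CG7924 (r = 0.988), CG34244 (0.983) and B4 (0.965). CG7924 and CG34244 are neighbours on 3L, at 14233469 to 14234609 and 14235053 to 14235941. Their deviations from strain means followed those of ple with r of 0.993 and 0.976. Of the genes beside ple, CG8519 was highest in MU12 with 5.11 ± 1.99 CPM and lowest in MU26 with 0.202 ± 0.107 (adjusted p = 0.00042), and dikar ranged over strain means from 41.1 to 52.5 CPM (adjusted p = 0.3).

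Salivary gland markers moved with ple as well. The 7 markers, all of which passed the filter and were called across strains, summed to 6.22 and 3.68 CPM in MU10, with MU12 at 16.6 and 14.3, MU14 at 104, 32.4 and 37.9, MU17 at 52.1 and 146, and MU26 at 18.2 and 11.6. The library with more ple had the higher sum in each strain. Their r with ple was 0.805, and 0.669 for deviations from strain means. Muscle markers, summing to between 21.5 and 98.6 CPM, went the other way within strains. Their r with ple was 0.0876 over the 11 libraries but -0.939 for deviations from strain means, and in each strain the library with the most ple had the lowest muscle sum. Within that sum bt alone had strain means of 11.4 to 69.0 CPM, against at most 5.58 for any other muscle marker. Epidermal and cuticle markers had an r of -0.378, and -0.577 for deviations. The part of RNA from these tissues in the ple values was not tested.

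**Figure D2:**
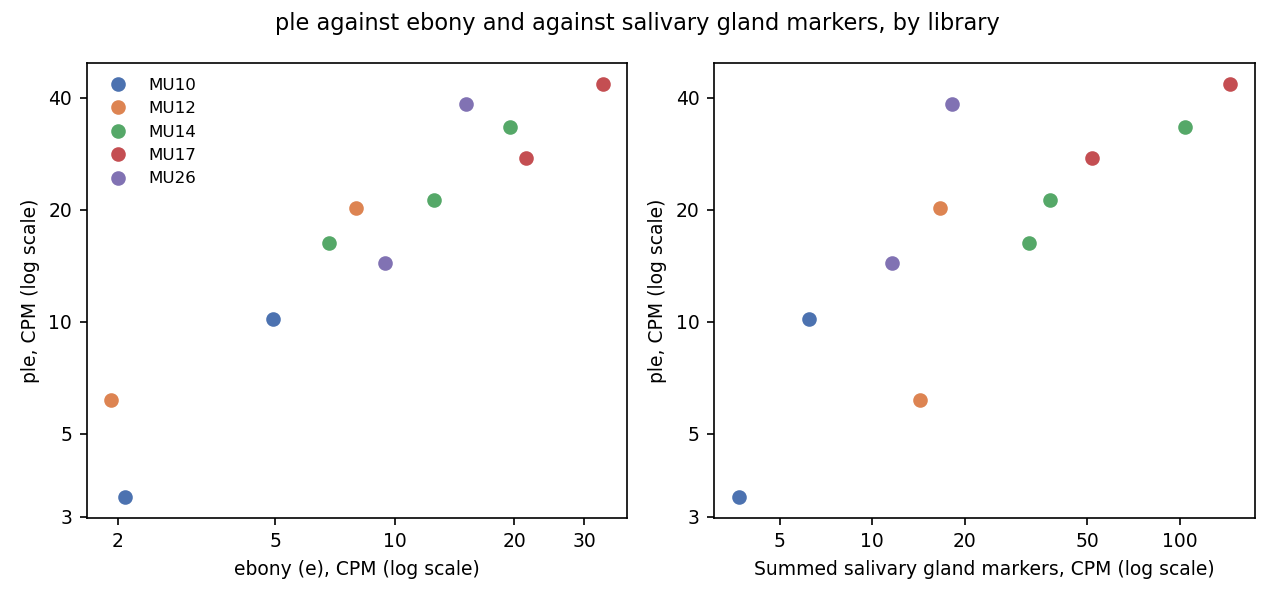
Normalised expression of ple (vertical axis, CPM, log scale) against that of e (left) and against the sum of 7 salivary gland markers (right), both in CPM on log scales. Each point is 1 of the 11 libraries, coloured by strain. The points rise together on the left (r = 0.949) and more loosely on the right (r = 0.805).

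Ddc encodes the decarboxylase that makes dopamine from dopa and serotonin from 5-hydroxytryptophan, and lies on 2L at 19116483 to 19120306 on the minus strand (FBgn0000422). Its counts were the lowest of the enzymes, between 65 and 325 per library. In CPM, MU10 had 2.94 and 2.65, MU12 2.44 and 2.88, MU14 6.56, 7.73 and 5.27, MU17 6.12 and 6.89, and MU26 3.36 and 2.25. The 5 libraries of MU14 and MU17 were all above the other 6, a separation that 2.94% of tested genes showed in that direction.

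Ddc differed across strains with an adjusted p of 0.002, which stayed at or under 0.0077 in all 19 alternatives. All 6 pairs that set MU14 or MU17 against MU10, MU12 or MU26 were called, with differences between 1.21 and 1.29 on the log2 scale and adjusted p-values between 0.0037 and 0.009 by edgeR. MU14 averaged 6.52 ± 1.23 CPM (SD, n = 3) and MU17 6.50 ± 0.544 (SD, n = 2), and their difference was 0.00 ± 0.20 (SE) on the log2 scale. The other 3 strains averaged 2.79 ± 0.204, 2.66 ± 0.309 and 2.81 ± 0.780 CPM (SD, n = 2 each), and differences among them were at most 0.08 in size with an SE of 0.24. Of the 6 pairs, MU10 against MU14 lost its call without MU10 replicate 2, MU10 against MU17 without either MU10 library, and MU17 against MU26 without MU26 replicate 2.

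The grouping of Ddc ran opposite to that of Pu, with MU14 and MU17 high for Ddc and low for Pu. Their r over the 11 libraries was -0.815, against 0.287 for deviations from strain means. Salivary gland markers had an r with Ddc of 0.832, and 0.283 for deviations from strain means. With Pu these r were -0.716 and 0.373, with AANATL2 -0.706 and -0.0337, and with DAT 0.421 and 0.0383. The part of salivary gland RNA in the values of these genes was not tested.

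The patterns closest to Ddc were those of CG8939 (r = 0.956), Cln7, whose human counterpart is a lysosomal membrane protein (0.951), and CG30456 (0.95). For deviations from strain means their r with Ddc fell to 0.671, 0.032 and 0.381. The gene models of Ddc and CG10561 overlap at their ends on opposite strands, and the sources do not state whether counting used strand. CG10561 held between 3.99 and 5.05 CPM with an adjusted p across strains of 0.84. On one side, amd is a related decarboxylase of the cuticle and held between 0.0543 and 0.319 CPM, too low to be tested. On the other, Phb1, a prohibitin gene, was highest in MU12 with 60.7 ± 2.34 CPM and lowest in MU26 with 28.0 ± 0.465, with an adjusted p across strains of 0.00011. Its second highest strain was MU17, so its order of strains was not that of Ddc.

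**Figure D3:**
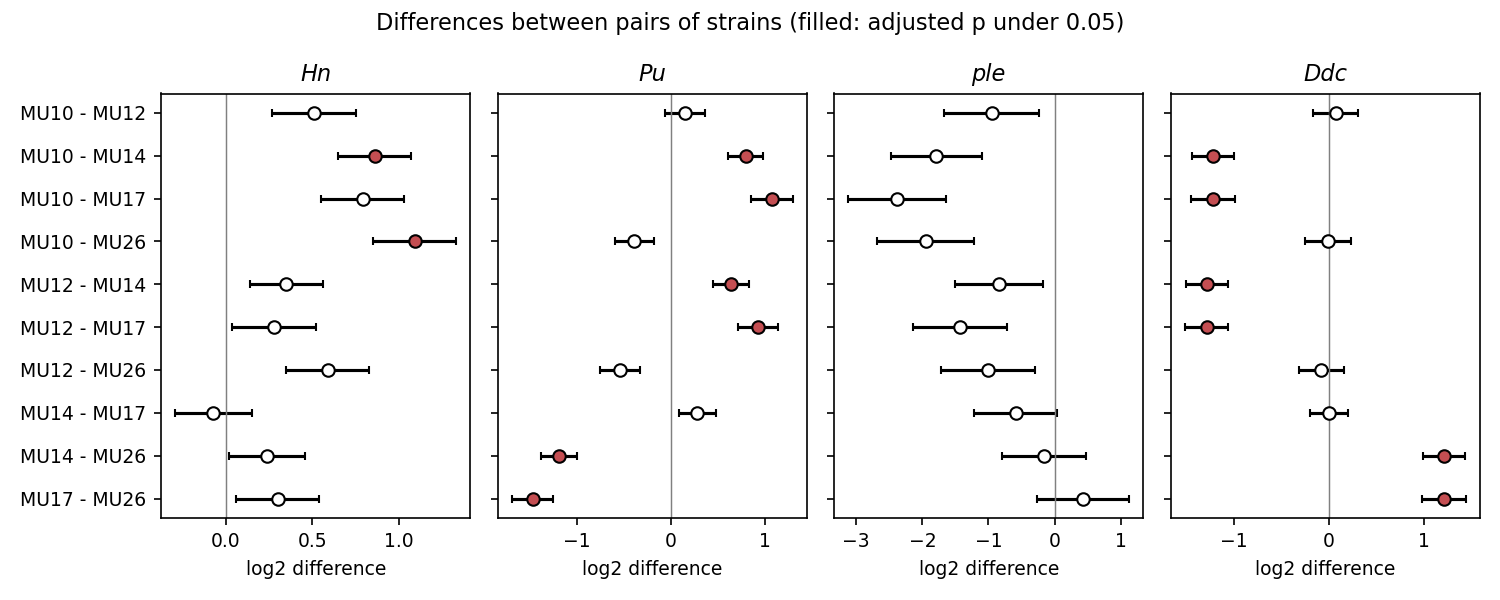
Log2 differences between pairs of strains (first strain minus second, horizontal axis) for Hn, Pu, ple and Ddc. Points are estimates, bars are 1 SE, and filled points have an adjusted p under 0.05. Ddc and Pu have 6 filled points each, Hn 2 and ple none, with ple having the widest bars.

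AANATL2 belongs to the family of N-acetyltransferases that acetylate dopamine and other arylalkylamines, and lies on 2L at 6255859 to 6256822 on the plus strand (FBgn0031791). MU10 libraries held 81.5 and 87.6 CPM of it, MU12 104.6 and 98.5, MU14 28.3, 29.1 and 21.3, MU17 37.6 and 38.3, and MU26 38.8 and 57.1. The 4 libraries of MU10 and MU12 were above the other 7, as was so for 2.84% of tested genes, and the 3 of MU14 were below the other 8, as was so for 4.31%. As the gene was chosen for its pattern, these shares describe it only.

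The order of strain means was MU12 with 102 ± 4.32 CPM, MU10 with 84.5 ± 4.30, MU26 with 48.0 ± 12.9, MU17 with 37.9 ± 0.489 (SD, n = 2 each) and MU14 with 26.2 ± 4.31 (SD, n = 3). MU12 exceeded MU14 by 1.95 ± 0.18 (SE) on the log2 scale, or 3.87-fold. The neighbours MU12 and MU10 did not overlap but differed by 0.26 ± 0.20, written as MU10 minus MU12 = -0.26. The neighbours MU26 and MU17 differed by 0.34 ± 0.20, close to the spread of the MU26 libraries.

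AANATL2 lies inside the gene model of Ddr on the same strand. Ddr held between 0.787 and 2.66 CPM. Of the genes on either side Ugt37B1 ranged over strain means from 0.474 to 1.85 CPM (adjusted p = 0.18) and CG13983 had no counts. The patterns closest to AANATL2 were those of CG9449 (r = 0.936), CG9512 (0.936) and CG5080 (0.932). For deviations from strain means their r with AANATL2 fell to 0.584, 0.157 and 0.365. Among the other members Ddc had an r with AANATL2 of -0.813, and -0.133 for deviations from strain means.

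DAT encodes the plasma membrane transporter that takes up dopamine, and lies on 2R at 16558567 to 16565238 on the minus strand (FBgn0034136). Its counts in MU14 were 6078, 5323 and 8473, against 12 to 36 in the other 8 libraries, which held 158 counts together. Scaled to CPM, MU14 had 161.6, 130.7 and 206, while MU10 had 0.281 and 0.353, MU12 0.822 and 0.978, MU17 0.275 and 0.381, and MU26 0.412 and 0.659. The 3 MU14 libraries were above the other 8, as was so for 5.1% of tested genes.

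MU14 averaged 166 ± 37.7 CPM (SD, n = 3), or 54.6 ± 12.4 CPM per kilobase. Its fitted difference from the mean of the other 4 strains was 8.45 ± 0.17 (SE) on the log2 scale, or 350-fold, and lay between 8.28 and 8.60 in the alternatives. By this difference DAT ranked 3rd among the 8415 tested genes, of which 7 exceeded 6.

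The other 4 strains held little DAT, but not equally little. MU12 averaged 0.900 ± 0.110 CPM (SD, n = 2) and MU26 0.535 ± 0.175, against 0.328 ± 0.0753 in MU17 and 0.317 ± 0.0511 in MU10. MU12 exceeded MU17 by 1.44 ± 0.33 (SE) on the log2 scale and MU26 by 0.75 ± 0.32. MU10 and MU17 differed by 0.07 in size with an SE of 0.37, and so cannot be ordered.

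The gene on the upstream side of DAT had the same pattern. CG4945 (FBgn0034137) starts 784 bases from the DAT gene model and is read away from it on the plus strand, at 16566023 to 16570120 on 2R. Its normalised expression was 25.5, 20.8 and 32.5 CPM in MU14 and between 0.0588 and 0.318 CPM in the other 8 libraries. In counts these were 847 to 1339 against 2 to 15.

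CG4945 was not a member and is described as the nearest gene on that side. It passed the filter on low counts only through MU14, with 3145 counts there against 37 in the other 8 libraries. Its levels are therefore given with no test. MU14 exceeded the mean of the other 4 strains by a log2 difference of 7.92 ± 0.29 (SE). The ratio of DAT to CG4945 in CPM was 6.34, 6.28 and 6.33 in the 3 MU14 libraries, although DAT itself varied from 131 to 206 CPM among them.

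The genes farther out did not share this difference. Within 50 kb on each side of the DAT start, a window chosen after the values were seen, lay 14 genes of which 9 were tested. The 7 tested besides DAT and CG4945 differed by -0.64 to 0.83 on the log2 scale. Of them CG4927 was higher in MU14 by 0.83 ± 0.16 (SE) with an adjusted p of 0.0085, RpS15, a ribosomal protein gene, by 0.29 ± 0.07 with 0.015, and Lst was lower with 0.048, all by edgeR. This comparison of MU14 with the mean of the other 4 strains called 21.4% of tested genes, and 12.1% as higher in MU14. On the other side Syn2 lies 80 bases past the end of DAT and held between 0 and 0.348 CPM, so that no tested gene within the window lay downstream of DAT.

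**Figure D4:**
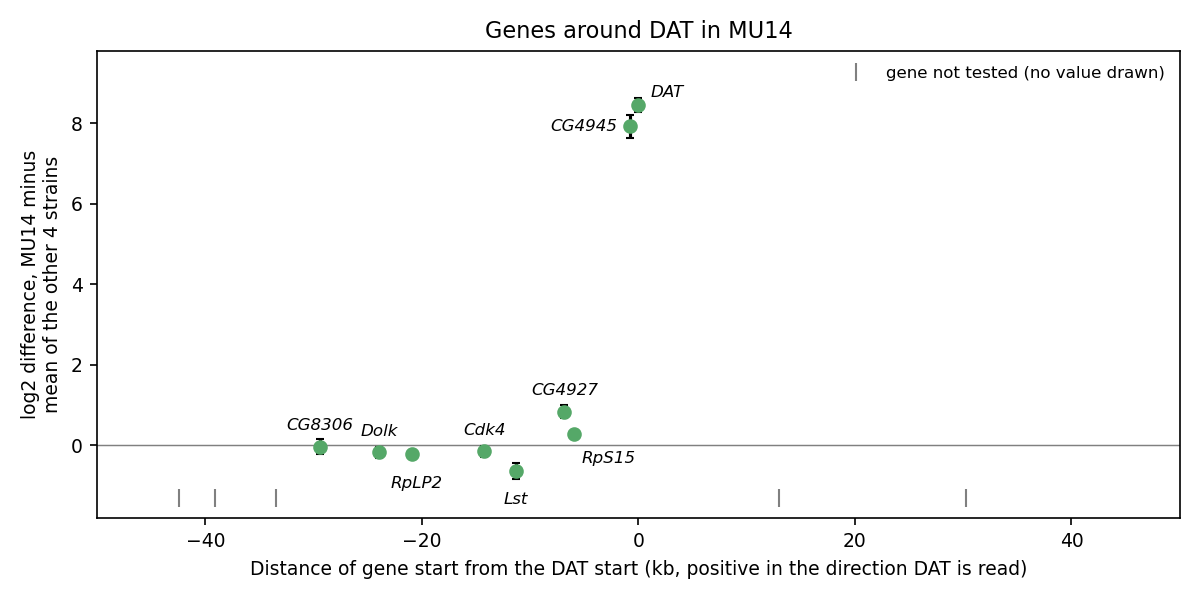
Log2 difference of MU14 from the mean of the other 4 strains (vertical axis, bars are 1 SE) for genes within 50 kb of the DAT start, by the distance of each gene's start from that of DAT in kb. Grey ticks mark genes too low to be tested. DAT and CG4945 stand at 8.45 and 7.92 and the other 7 tested genes between -0.64 and 0.83.

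DAT is known chiefly from dopaminergic neurons, and the 11 nervous system markers were uneven in these libraries. Of them 6 passed the filter, and their sum was 600 to 678 CPM in MU14 and 507 to 683 in the other strains, most of it from Syt1, a synaptotagmin, with 468 to 613 CPM. Strain means of Csp, a synaptic vesicle chaperone, were 46.9 ± 6.55 CPM in MU14, between 39.6 and 41.2 in MU10, MU12 and MU17, and 21.0 ± 6.33 in MU26. Csp was the single marker called across strains (adjusted p = 0.01). Strain means of Syx1A ranged from 10.8 to 17.4 CPM and those of elav from 2.08 to 4.62, neither highest in MU14. At the low end nSyb held 2 to 11 counts per library and 4, 5 and 8 in MU14, ChAT held 1 to 7, and VAChT, VGlut and repo at most 7. The sum had an r with DAT of 0.183 over the 11 libraries and 0.791 for deviations from strain means, and the part of nervous tissue in the DAT values was not tested.

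Over the 11 libraries the genes with the pattern most like DAT were CG43133 on the X (r = 0.988), frac on 3L (0.987) and Cpr31A, a cuticle protein gene on 2L (0.986). None lies near DAT. All have the MU14 libraries far above the rest, so the r mostly repeats that 1 difference. Within strains the deviations of frac followed those of DAT with r of 0.176, against 0.888 for CG43133 and 0.839 for Cpr31A.

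Among the other amine transporters none of the 6 reached the filter. They hold the serotonin transporter SerT and the vesicular transporters Vmat and prt, and none had more than 19 counts or 0.466 CPM in any library. DAT was thus the single transporter of its list with a level above 1 CPM, and that in MU14.

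The wider pathway was described by lists of 71 further genes for amine synthesis, cofactors, pigment, conjugation, transport, receptors and breakdown. Of these 32 were tested and 17 called across strains, or 53.1%, near the 48.3% of all tested genes. 10 of the 17 were called in every alternative that tested them.

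Of the 6 other amine synthesis enzymes, only Hdc, which makes histamine, was tested. It averaged 0.226 ± 0.0137 CPM in MU10 and 0.312 ± 0.0570 in MU12, against 0.836 ± 0.243 in MU14, 0.731 ± 0.224 in MU17 and 0.973 ± 0.101 in MU26 (SD, n = 2 or 3), with an adjusted p of 0.0085. The other 5, among them the tyrosine decarboxylases Tdc1 and Tdc2, the octopamine enzyme Tbh and the neuronal hydroxylase Trhn, had at most 53 counts in a library.

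The later steps of the cofactor branch that Pu opens varied less than Pu. Of 4 tested genes pr and Pcd were called, where 48.3% of all tested genes were called. The pr gene, for the next synthesis step, was highest in MU12 with 71.3 ± 4.0 CPM and lowest in MU17 with 41.0 ± 1.72 (adjusted p = 0.0023). Pcd, which recycles the used cofactor, was highest in MU26 with 106 ± 2.27 CPM and lowest in MU14 with 65.2 ± 3.91 (adjusted p = 0.006). MU26 thus had the highest mean of both Pu and Pcd, but for Pcd its libraries overlapped those of MU12, with a mean of 103 ± 13.5 CPM. The r of Pu and Pcd was 0.681, and -0.028 for deviations from strain means. Dhpr and Sptr had adjusted p-values of 0.087 and 0.31.

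In the pteridine pigment branch 3 of 5 tested genes were called, where 48.3% of all tested genes were called. The molybdenum cofactor sulfurase gene mal was 18.5 ± 1.74 CPM in MU12 and 7.43 ± 0.828 in MU26 (adjusted p = 0.0018). DhpD was highest in MU12 with 33.3 ± 7.78 CPM and lowest in MU26 with 16.7 ± 0.663 (adjusted p = 0.0055), and cl was highest in MU14 with 79.0 ± 5.06 CPM and lowest in MU26 with 49.7 ± 2.84 (adjusted p = 0.0059). MU26, highest for Pu, thus had the lowest mean for these 3 genes. Its libraries lay below all others for cl, but overlapped those of MU14 for mal and those of MU14 and MU17 for DhpD. The xanthine dehydrogenase gene ry ranged from 69.9 ± 23.6 CPM in MU14 to 143 ± 25.9 in MU12, with MU26 at 132 ± 63.2 (adjusted p = 0.15). Catsup, which in flies restrains tyrosine hydroxylase and Pu, ranged over strain means from 65.5 to 74.2 CPM with an adjusted p of 0.91.

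Of the genes for acetylation and cuticle sclerotisation besides AANATL2, 12 of 23 were tested and 3 called, e, speck and yellow-d2. Of all tested genes 48.3% were called. The gene speck encodes the acetyltransferase AANAT1 and was highest in MU12 with 7.31 ± 3.40 CPM and lowest in MU26 with 3.14 ± 0.412. Its adjusted p of 0.044 was lost in 12 of 19 alternatives, among them every one that left out a library of MU10, MU14, MU17 or MU26. For yellow-d2 (adjusted p = 0.026) the call was lost without MU10 replicate 2, MU14 replicate 1 or either MU26 library. The gene of the list with the highest CPM was yellow-f, of the yellow family of melanin enzymes, with strain means from 417 to 627 CPM and an adjusted p of 0.25. The gene t (tan), whose enzyme reverses the step of e, ranged from 8.21 ± 2.06 CPM in MU17 to 27.1 ± 14.6 in MU26 (adjusted p = 0.061).

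Receptors for amines were low throughout. Of 17 genes 4 were tested and 3 called, where 48.3% of all tested genes were called. The other 13 held at most 58 counts in a library. Octbeta2R, an octopamine receptor, was highest in MU14 with 1.35 ± 0.432 CPM and lowest in MU26 with 0.0347 ± 0.0490. The serotonin receptor gene 5-HT1B was 4.50 ± 2.02 CPM in MU17 and at most 0.718 ± 0.649 elsewhere (adjusted p = 0.0032, and 0.35 without MU17). Octbeta1R was highest in MU17 with 1.13 ± 0.0776 CPM. Octbeta2R and Octbeta1R passed the filter on low counts only through the strain where each was highest. Octbeta2R had 163 counts in MU14 and Octbeta1R 103 in MU17. No p-value is therefore given for them, and their calls describe these libraries only.

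Downstream of tyrosine, Faa, the last enzyme of tyrosine breakdown, was highest in MU14 with 2.92 ± 0.559 CPM and lowest in MU26 with 0.810 ± 0.473 (adjusted p = 0.013). GstZ1 was called with an adjusted p of 0.045 and lost the call in 15 of 19 alternatives, among them each that left out 1 library. All 3 prophenoloxidase genes, which oxidise phenols to melanin precursors in blood cells, were called, where 48.3% of all tested genes were called. PPO3 lost its call without MU17, with an adjusted p of 0.057. PPO2 was highest in MU10 with 42.1 ± 17.9 CPM and lowest in MU26 with 4.99 ± 1.63 (adjusted p = 0.005). Haemocyte markers, which include PPO1 and PPO2, summed to 807 to 859 CPM in MU10 and 516 to 669 in the other strains. Most of that sum was srp, with strain means of 321 to 579 CPM. Of the tested markers PPO1, PPO2, NimC1 and srp were highest in MU10, Hml and eater in MU17, and Pxn and crq in MU14. The part of haemocytes in the prophenoloxidase values was not tested.

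**Figure D5:**
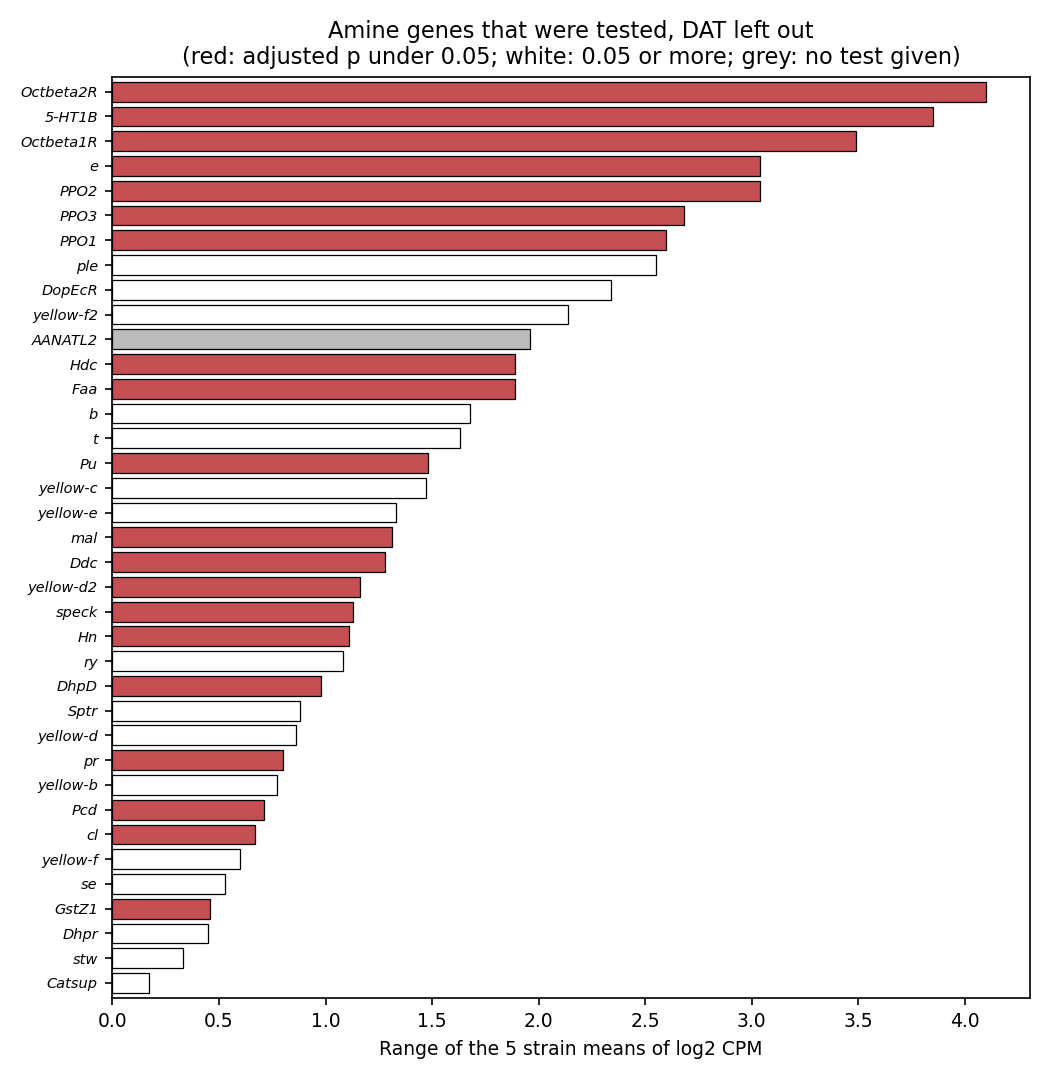
Range of the 5 strain means of log2 CPM (horizontal axis) for every tested gene of the amine lists and the members, DAT left out. Red bars have an adjusted p under 0.05 across strains, white bars do not, and the grey bar of AANATL2 has no test. The range of ple is above 2.5 without a call, while Catsup is lowest.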

How the data were processed

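The authors deposited whole-number counts of reads for each gene in 11 libraries, not normalised, with a length for each gene. By their account, poly-A libraries were sequenced as read pairs, aligned to FlyBase transcripts by NextGenMap, and counted by gene after ambiguous pairs were dropped. Loss of ambiguous pairs lowers the counts of genes with near-identical copies. Symbols were matched on the FlyBase identifier for 13843 genes and on the CG number among RefSeq synonyms for 83. The BDGP6.54 annotation from Ensembl gave positions.

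The filter required 15 counts on average, which kept 8415 genes and removed 5516. Counts were scaled by TMM and fitted with edgeR 4.0.16 (R 4.3.3) with 1 coefficient per strain. Adjustment of p-values was by Benjamini-Hochberg over all tested genes, at 0.05. Log2 CPM had a prior count of 2. The script was tested on simulated data. Alternatives were RLE and upper-quartile scaling, other filters, DESeq2 1.42.0, limma-voom 3.58.1, a replicate block, and leaving out MU17 or each library. No libraries were duplicates.

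The members and lists were chosen with earlier results of these data known. Named were the members, per list up to 3 called genes with the widest range or else the most abundant, optionally list genes reaching 10 CPM, the 3 tested genes correlating best with each member, and the nearest gene on each side of it.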

Additional observations from a re-analysis of the deposited data

How the results depend on the processing

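The 19 alternatives were 2 other scalings, 2 other filters, DESeq2, limma-voom, the replicate block, the fit without MU17, and 11 fits that each left out 1 library. Of the 4 enzymes 2 to 4 were called across strains, and Ddc and Pu were called in all 19. The count of called enzyme pairs, 14 here, ranged from 7 to 15 when 1 library was left out and reached 18 with DESeq2. Leaving out MU10 replicate 1 gave 9 and leaving out its replicate 2 gave 7. Among the wider lists 13 to 21 genes were called. The log2 difference of AANATL2 between MU12 and MU14 lay between 1.82 and 2.03. Over the 5 strain means the r of Ddc with CG8939 was 0.992 in place of 0.956, and that of Pu with sol 0.99 in place of 0.942. The alternative that would set zero counts to a floor had no effect to compute, since no strain lacked counts of DAT or AANATL2.

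Replicate numbers showed no clear pairing of the libraries over all tested genes, which does not settle the matter for single genes. For ple, replicate 1 was above replicate 2 in MU10, MU12, MU14 and MU26, and below it in MU17. The correlation of replicate deviations between strains ranged from -0.251 to 0.268, with 3 of 10 pairs of strains over 0.1, and 6 of 11 libraries were closest to one of the same number. With the number as a replicate block, 4 enzymes were called, with ple at an adjusted p of 0.049, together with 13 enzyme pairs, 17 genes of the wider lists and 3132 of all tested genes.

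The number of libraries, 2 or 3 per strain, limits the precision of every difference. Ddc rests on 65 to 325 counts per library, and DAT outside MU14 on 12 to 36 counts per library.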
